A study of Mus musculus with 8 samples.

Results

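The 36 genes described here encode chains of the integrins and of the laminins, and they were taken from a list that named 18 integrin alpha chains, 8 integrin beta chains and 10 laminin chains. For each gene, accessible regions were collected that overlapped the gene body or the 10000 bp upstream of its annotated start in the mm10 mouse genome. This gave 185 regions out of 69399 in all, each belonging to 1 gene of the list. They lay at 129 places for integrin genes and at 56 for laminin genes, on 14 chromosomes. Every one of the 36 genes had at least 1 region in at least 1 library, against 74.3% of all protein-coding genes. The median window of all protein-coding genes was shorter, so the 2 shares are not directly comparable.

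The regions came from ATAC-seq, in which the transposase Tn5 cuts open chromatin, in cells of a cutaneous squamous cell carcinoma (SCC) with a Ha-Ras driver. The tumours were raised by DMBA/TPA treatment in FVB mice of the genotype K14CreER FAKflox/flox, where Cre recombinase is driven by the keratin 14 promoter, and focal adhesion kinase (FAK) was deleted in the cultured cells with 4-hydroxytamoxifen. The FAK-/- cells were 1 clone, from which the other lines were made by retroviral re-expression of wild-type FAK (FAK-WT), of FAK with impaired nuclear localization (FAK-nls, carrying R177A, R178A, R190A, R191A, R216A and R218A) or of kinase-deficient FAK (FAK-kd, carrying K454R). Each of the 4 lines had 2 libraries, and all lines, the FAK-/- cells included, shared the tumour, the Cre transgene and the deletion of the endogenous gene. Comparison of FAK-WT-expressing cells with each of the other lines asked which accessible regions depended on FAK, on its presence in the nucleus or on its kinase activity. Because the lines descend from 1 clone, a difference between lines cannot be told apart from a difference that arose when a line was made.

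Integrins are heterodimers of an alpha and a beta chain that span the plasma membrane and bind extracellular matrix outside the cell and the actin or keratin cytoskeleton inside it. FAK is recruited to clustered integrins in focal adhesions and carries their signal into the cell. Laminins are trimers of an alpha, a beta and a gamma chain and form the sheet of the basement membrane, to which basal keratinocytes attach through the integrins alpha6beta4, in hemidesmosomes, and alpha3beta1.

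The account that follows turns on 5 regions in particular, and the central 300 bases of each are shown as they stand on the forward strand of the GRCm38 reference. The *Itga5* and *Itgb6* regions were called in all 8 libraries and had the first and the third best rank by p-value among the 185. The *Lamb3* and *Itga7* regions were present in the FAK-WT pair of libraries and absent from the FAK-nls pair, and the *Lama4* region was called in neither FAK-WT library. Capitals mark exact matches, on either strand, to TGACTCA (an AP-1 site) or to AGGAAGT or CGGAAGT (ETS sites); TGACGTCA (a CRE) and GGAATG (a TEAD site) were also sought and not found in these windows.
Itga5, non-coding stretch of a region at chr15:103358677-103358976: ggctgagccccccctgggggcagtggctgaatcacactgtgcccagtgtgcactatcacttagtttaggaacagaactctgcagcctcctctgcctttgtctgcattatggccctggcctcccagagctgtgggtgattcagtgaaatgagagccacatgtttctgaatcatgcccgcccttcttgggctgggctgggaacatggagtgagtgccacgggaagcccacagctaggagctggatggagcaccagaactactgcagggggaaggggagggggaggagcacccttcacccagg
Itgb6, intron, chr2:60689080-60689379: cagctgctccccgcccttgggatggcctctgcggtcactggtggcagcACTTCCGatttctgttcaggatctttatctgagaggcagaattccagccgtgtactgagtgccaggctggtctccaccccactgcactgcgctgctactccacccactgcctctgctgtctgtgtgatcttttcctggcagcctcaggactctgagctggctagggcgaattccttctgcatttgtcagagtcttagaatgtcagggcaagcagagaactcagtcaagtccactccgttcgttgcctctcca
Lamb3, intron, chr1:193297772-193298071: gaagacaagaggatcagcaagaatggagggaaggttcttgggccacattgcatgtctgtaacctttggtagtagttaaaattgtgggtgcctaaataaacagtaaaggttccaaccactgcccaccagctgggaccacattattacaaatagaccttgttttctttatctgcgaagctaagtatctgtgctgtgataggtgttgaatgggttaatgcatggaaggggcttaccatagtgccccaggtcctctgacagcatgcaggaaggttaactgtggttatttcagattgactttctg
Itga7, exon and flanking intron, chr10:128950351-128950650: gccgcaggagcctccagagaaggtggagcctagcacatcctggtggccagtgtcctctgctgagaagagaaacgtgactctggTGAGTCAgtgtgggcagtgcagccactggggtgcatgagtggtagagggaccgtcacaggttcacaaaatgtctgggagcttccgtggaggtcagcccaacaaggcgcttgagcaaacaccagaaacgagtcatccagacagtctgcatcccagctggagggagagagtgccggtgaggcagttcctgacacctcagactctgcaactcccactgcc
Lama4, intron, chr10:39023759-39024058: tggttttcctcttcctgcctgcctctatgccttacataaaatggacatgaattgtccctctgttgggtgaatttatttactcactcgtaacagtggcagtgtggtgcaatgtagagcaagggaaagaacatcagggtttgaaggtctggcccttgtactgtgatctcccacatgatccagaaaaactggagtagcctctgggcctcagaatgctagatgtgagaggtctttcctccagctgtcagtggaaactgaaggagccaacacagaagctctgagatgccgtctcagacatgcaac

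Within these windows the *Itgb6* intron held 1 ETS match, written as ACTTCCG on the forward strand, and the *Itga7* window held 1 AP-1 match, on the reverse strand (TGAGTCA). The *Itga5*, *Lamb3* and *Lama4* windows held none of the 4 motifs. Over all 185 integrin and laminin regions, TGACTCA was present in the central 300 bp of 42 regions (22.7%), against 28.7% of all 69399 regions. An ETS match was present in 24 (13.0%, against 10.9%), GGAATG in 34 (18.4%, against 19.0%) and TGACGTCA in 0, against 0.719% of all regions. Among the 45 integrin and laminin regions called in all 8 libraries, 10 held an ETS match (22.2%, against 12.4% of all regions called in 8 libraries), and 10 held TGACTCA (22.2%, against 26.1%). These matches describe letters in a window and were not tested.

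The labelled cell type was checked against marker genes by whether a region was called at the promoter. This was a window of 500 bp before and 2000 bp after the first start of a gene's coding transcripts. Later annotated starts of the same gene were not counted, so a promoter at such a start was not checked. Of 8 keratinocyte and epithelial markers, 7 (*Krt5*, *Trp63*, *Cdh1*, *Epcam*, *Dsp*, *Sfn* and *Perp*) had no promoter call in any library, and *Krt14* had one in 1 library. The promoter of the fibroblast marker *Col1a1* was called in all 8 libraries and that of *Col3a1* in 7, while those of *Pdgfra* and *Dcn* were called in none. Of 4 melanocyte markers only *Mitf* had a promoter call, in 8 libraries. Of 6 leukocyte markers only *Cd68* had one, in 2 libraries, and of 4 endothelial markers only *Kdr*, in 1 library. The epithelial markers that define the label were therefore near absent from the calls at first starts, and their part in the results below was not tested.

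Libraries differed in the number of regions called across the genome, from 24222 in a FAK-nls library to 53459 in a FAK-WT library, and the calls at integrin and laminin genes followed. Of the 185 regions, 133 and 106 were called with FAK-WT, 120 and 92 in FAK-/- cells, 67 and 68 with FAK-nls, and 91 and 126 with FAK-kd. The FAK-nls libraries were the lowest, and the other 3 lines overlapped. As a share of everything called in a library, however, integrin and laminin regions made up much the same part of each list. The share was 0.261% ± 0.0174 for FAK-WT-expressing cells, 0.272% ± 0.0120 without FAK, 0.276% ± 0.0014 with FAK-nls and 0.277% ± 0.0016 with FAK-kd (SD, n = 2 for each). When only the 24383 strongest peaks of every library were kept, the number in the smallest list, the counts became 57 and 59, 58 and 63, 67 and 67, and 61 and 55 in the same order of lines. On that footing the FAK-nls libraries were the highest. With 2 libraries against 2, the smallest p of an exact two-sided permutation test is 0.33, so that no such test could pass.

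**Figure D1:**
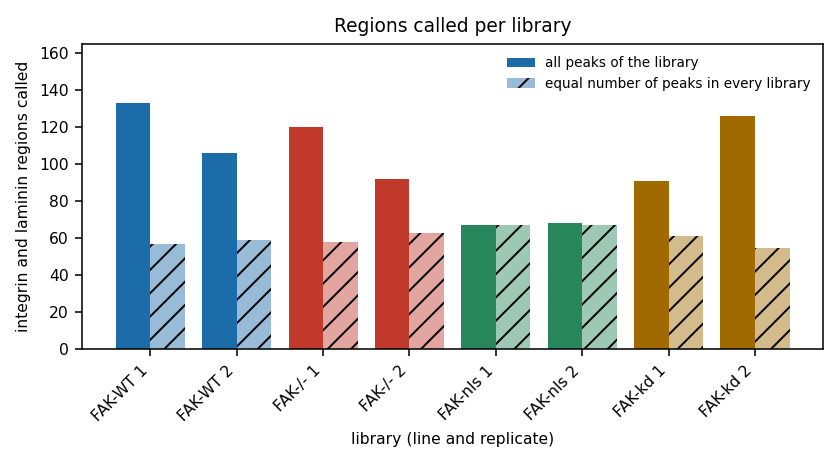
Number of integrin and laminin regions called in each library (vertical axis, regions) by line and replicate (horizontal axis), with solid bars for all deposited peaks and hatched bars for an equal number of strongest peaks in every library. The FAK-nls libraries have the lowest solid bars (67 and 68) and the highest hatched bars (67 and 67).

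Of the 185 regions, 45 (24.3%) were called in all 8 libraries, against 25.8% of all regions, and 49 (26.5%, against 28.6%) were called in 1 library only. The regions called in all 8 libraries had a median length of 1101 bp, and those called in 1 had a median of 291 bp. Of the integrin and laminin regions called in either library of a line, both libraries had 68.3% with FAK-WT (64.2% of all regions) and 69.6% without FAK (67.7%). The mutant lines had 62.7% (FAK-nls, against 67.5%) and 61.9% (FAK-kd, against 61.5%). By position, 124 regions were intronic, 24 lay at the promoter, 18 were upstream, 16 overlapped an exon and 3 overlapped another annotated start of the gene. Promoter regions were called in all 8 libraries at 12 of 24 (50%, against 66.7% of all regions at a protein-coding promoter), and intronic regions at 22 of 124 (17.7%, against 17.7% of all regions within introns of protein-coding genes). Some regions also lay at the promoter of another gene, such as *Pelo* and *Gm49395* at *Itga1*, *Haspin* at *Itgae* and *Usp19* at *Lamb2*.

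**Figure D2:**
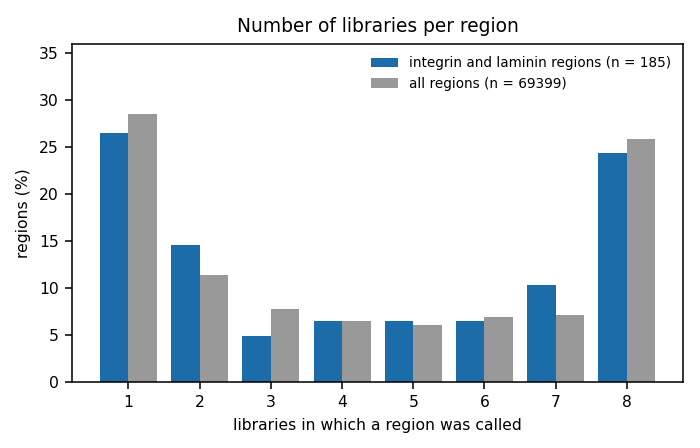
Share of regions (vertical axis, %) by the number of libraries in which a region was called (horizontal axis), for the 185 integrin and laminin regions in blue and for all 69399 regions in grey. Both distributions are highest at 1 and at 8 libraries, with 26.5% and 24.3% of the integrin and laminin regions there.

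The genes themselves differed widely. A promoter region was called in all 8 libraries at *Itga5*, *Itga6*, *Itga8*, *Itgav*, *Itgax*, *Itgb1*, *Itgb2*, *Itgb7*, *Itgb8*, *Lama5*, *Lamb2* and *Lamc1*, which is 12 of 36 genes against 38.7% of protein-coding genes. On equal numbers of peaks *Itgax*, *Lama5* and *Lamb2* dropped out, and 9 genes were left. With all peaks, a further 11 genes had one in 1 to 7 libraries, and 13 had none. The matching shares over all protein-coding genes are not given here for those 2 counts. Of these 13, *Itga2b*, *Itgb3*, *Itgae*, *Lama2* and *Lama4* nevertheless had another region that was called in all 8 libraries. The median integrin or laminin gene had 5 regions in a window of 76.9 kb, while the median protein-coding gene had 2 in 27.4 kb. Per 100 kb the medians were 5.49 and 4.53 regions. *Itgav* had most regions called in all 8 libraries, with 4 of its 8. It was followed by *Itgb1*, *Itgb5*, *Itgb8*, *Lama2* and *Lamc1* with 3 each, which were tied, so that all are named. With equal numbers of peaks *Lamc1* had most, with 3, and *Itgav* had 2.

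**Figure D3:**
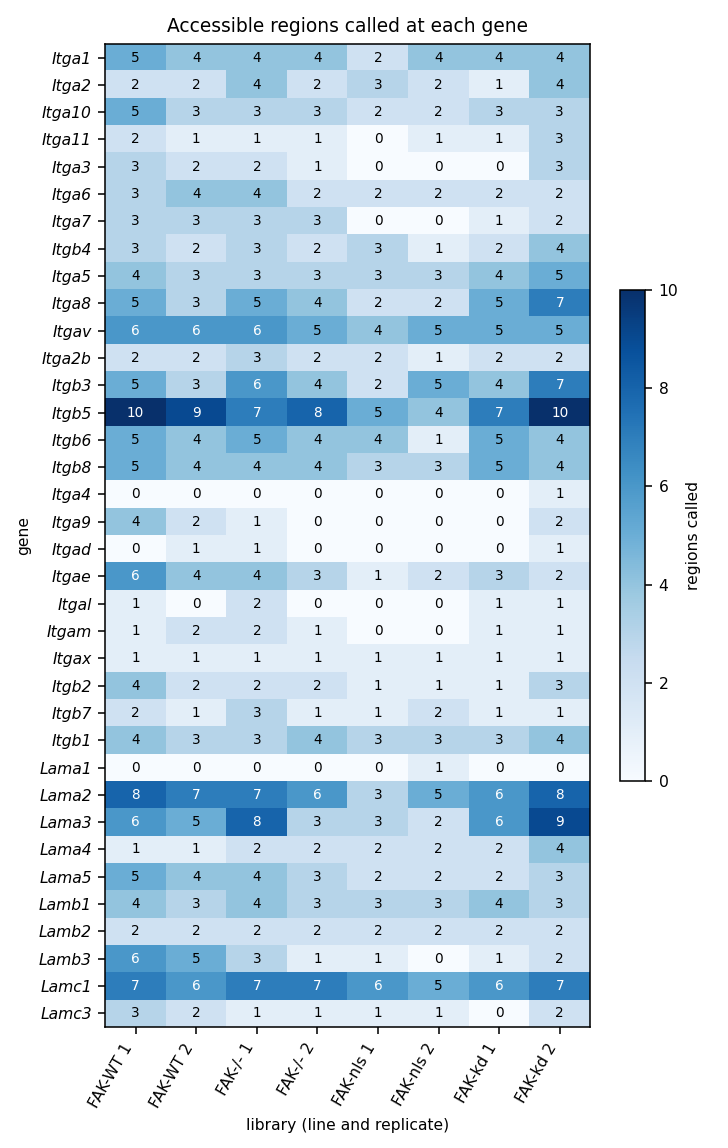
Number of regions called at each of the 36 genes (rows, by class) in each library (columns, by line and replicate), with the number in the cell and the shade. *Itga4*, *Itgad* and *Lama1* have 0 or 1 region in every library, *Lamc1* has 5 to 7 regions in every library, and *Itga7* has 3 regions in the FAK-WT and FAK-/- libraries and 0 in the FAK-nls libraries.

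*Itgb1* encodes the beta1 chain, the partner of most alpha chains in epithelial cells. Its promoter region (chr8:128685053-128686415, 80 bp from the start) had a fold enrichment, the ratio of coverage to the local background, of 5.11 and 5.35 in FAK-WT, 6.59 and 5.10 in FAK-/-, 6.02 and 4.44 in FAK-nls and 6.0 and 5.58 in FAK-kd cells. Both FAK-kd values were above the FAK-WT pair, and the other pairs of lines overlapped. The fold enrichments given by gene, here and below, were not normalised between libraries. In its introns, 2 further regions were called in all 8 libraries, 5118 and 19160 bp downstream of the start. The remaining regions of *Itgb1* were called in 1 and 2 libraries.

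Among the laminin-binding integrins, *Itga6*, the alpha6 chain of hemidesmosomes, had the constant promoter. Fold enrichment at chr2:71786196-71787654 was 5.08 and 4.64 in FAK-WT, 4.41 and 5.00 in FAK-/-, 4.50 and 4.27 in FAK-nls and 4.89 and 4.97 in FAK-kd cells, so that the FAK-nls pair lay below the FAK-WT and FAK-kd pairs and overlapped the FAK-/- pair. The promoter of its partner *Itgb4*, at chr11:115975698-115976648, was called in 3 libraries (1 FAK-/- library at 3.21, 1 FAK-nls library at 3.46 and 1 FAK-kd library at 3.07). A region 9762 bp upstream of *Itgb4* was called in all 8 libraries, from 4.66 to 6.96. *Itga3*, the alpha3 chain, had 3 regions in all and none in a FAK-nls library or in 1 of the FAK-kd libraries. None of the 3 was called in any library on equal numbers of peaks. Its promoter, at chr11:95075493-95077120, was called at 3.86 and 3.31 in FAK-WT, at 2.52 in 1 FAK-/- and at 3.58 in 1 FAK-kd library.

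*Itga7* encodes the alpha7 chain, known best as the laminin receptor of muscle, and had no promoter region. It had 3 regions, each called in all 4 libraries of FAK-WT and FAK-/- cells and in no FAK-nls library. The exonic region printed above (chr10:128950176-128950824) had fold enrichments of 6.13 and 4.30 in FAK-WT, 4.81 and 3.47 in FAK-/- and 4.40 in 1 FAK-kd library. On equal numbers of peaks it was again found in all 4 FAK-WT and FAK-/- libraries and in no FAK-nls or FAK-kd library. The upstream region was then called in 1 FAK-WT and 1 FAK-kd library, and the intronic one in none. With all peaks the upstream region, 2092 bp before the start, was called in the FAK-kd pair as well, and the intronic one, 12044 bp into the gene, was not. At the upstream region the values were 4.16 and 5.53 in FAK-WT, 3.28 and 3.10 in FAK-/- and 4.13 and 3.895 in FAK-kd cells, and at the intronic one 3.86 and 3.61 in FAK-WT and 3.37 and 3.41 in FAK-/- cells. The FAK-WT and FAK-/- libraries thus had the same calls at *Itga7* with all peaks, and both FAK-WT values were above both FAK-/- values at the upstream and intronic regions but not at the exonic one.

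The RGD-binding integrins, which recognise fibronectin, vitronectin and latent TGF-beta, made up the class with most genes and most regions. They had 57 regions at 8 genes, 16 of them in all 8 libraries, where 25.8% of all regions were. Per 100 kb they had 7.27 regions, below the 8.69 at *Itgb1*. *Itgav*, the alphav chain, had a promoter region at chr2:83723946-83725615 with 3.72 and 3.57 in FAK-WT, 3.96 and 4.04 in FAK-/-, 4.74 and 3.94 in FAK-nls and 3.59 and 4.93 in FAK-kd cells. Both FAK-WT values were below those of FAK-/- and FAK-nls cells and overlapped those of FAK-kd cells. An *Itgav* intronic region was called in all 6 libraries of the other lines (3.75 and 3.798 in FAK-WT, 3.798 and 3.36 in FAK-/-, 4.29 and 3.72 in FAK-kd cells) and in neither FAK-nls library. It kept this pattern on equal numbers of peaks.

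*Itga5*, the alpha5 chain of the fibronectin receptor, held the best-ranked region of the list. That region, at chr15:103358190-103359463 and 7937 bp into the gene, ranked 99 by p-value in its best library. Its fold enrichment was 6.11 and 6.99 in FAK-WT, 6.90 and 5.85 in FAK-/-, 6.49 and 5.87 in FAK-nls and 5.84 and 6.75 in FAK-kd cells, with all lines overlapping. The *Itga5* promoter at chr15:103366307-103367051 had lower values, 3.55 and 3.07 in FAK-WT, 3.51 and 3.45 in FAK-/-, 3.396 and 3.70 in FAK-nls and 3.74 and 4.64 in FAK-kd cells. The FAK-kd pair lay above both FAK-WT values there.

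Among the beta chains that pair with alphav, *Itgb6*, an epithelial receptor of latent TGF-beta, had its strongest region in an intron 33414 bp from the start (chr2:60688904-60689555). The values were 8.56 and 6.77 in FAK-WT, 7.91 and 6.67 in FAK-/-, 5.01 and 5.57 in FAK-nls and 6.18 and 8.66 in FAK-kd cells. The FAK-nls pair was below every other library. At the *Itgb6* promoter a region was called in 1 FAK-kd library only (3.18). *Itgb8* had a promoter region in all 8 libraries (chr12:119237727-119239113), from 4.12 in a FAK-nls to 5.71 in a FAK-/- library. *Itgb5* had the most regions of any gene, 12, of which 3 were in all 8 libraries. Its promoter at chr16:33829243-33830492 was called in 7 libraries, from 2.89 to 4.24. *Itga8* had a promoter region in all 8 (chr2:12301104-12302519, 4.12 to 5.43), and *Itgb3*, the partner of alphav and of the platelet chain alphaIIb, had none but a region overlapping an exon, 33263 bp into the gene, in all 8 libraries. *Itga2b*, the platelet chain itself, had 3 regions, of which 1, at another annotated start, was called in all 8.

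Collagen-binding alpha chains had 20 regions at 4 genes, and none of the 4 had a promoter called in every library. The *Itga1* promoter (chr13:115101411-115102298), which is also that of *Gm49395*, was called in 7 libraries, from 4.06 to 6.46, and missed in 1 FAK-nls library. The *Itga2* promoter, at chr13:114931444-114932254, was called in neither FAK-WT library. It was called at 3.09 and 3.18 in FAK-/-, 3.12 and 3.41 in FAK-nls and 3.07 in 1 FAK-kd library. A region 1639 bp upstream of *Itga2* was called in all 8, at 7.27 and 6.45 in FAK-WT, 4.80 and 4.88 in FAK-/-, 4.60 and 5.59 in FAK-nls and 4.20 and 6.28 in FAK-kd cells. Both FAK-WT values there were above all others. *Itga10* had a promoter region at chr3:96645317-96645717 in 5 libraries (4.75 and 4.46 in FAK-WT, 3.83 and 3.97 in FAK-/- and 3.85 in 1 FAK-kd library) and a second one in 1 FAK-WT library (3.32). *Itga11*, a chain known from fibroblasts, had 4 regions and no promoter call. The alpha4 and alpha9 chains had no region called in all 8 libraries. *Itga4* had 1 region, called in 1 FAK-kd library, and 7 of the 8 *Itga9* regions were called in 1 library.

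Leukocyte integrins, whose chains are known from cells of the blood, had 23 regions at 7 genes, and 3 of the genes had a constant promoter. At the *Itgb7* promoter (chr15:102230551-102233128) fold enrichment was 4.21 and 4.61 in FAK-WT, 5.00 and 5.18 in FAK-/-, 5.30 and 5.11 in FAK-nls and 5.46 and 5.74 in FAK-kd cells. The FAK-WT pair was below every other library. At *Itgax* (chr7:128129117-128129718) it was 4.87 and 5.48 in FAK-WT and 4.46 and 3.47 in FAK-/- cells. It was 3.88 and 3.82 in FAK-nls and 3.77 and 3.34 in FAK-kd cells, the FAK-WT pair being highest before normalisation. An exact two-sided permutation test of the FAK-WT pair against the other 6 libraries gave p = 0.0714 at *Itgax*. The *Itgb2* promoter (chr10:77530953-77532109) lay between 3.63 and 4.85. *Itgal* had a promoter call in 1 FAK-/- library (3.13), and *Itgad*, *Itgae* and *Itgam* had none. The leukocyte markers were near absent from the promoter calls, as given above.

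**Figure D4:**
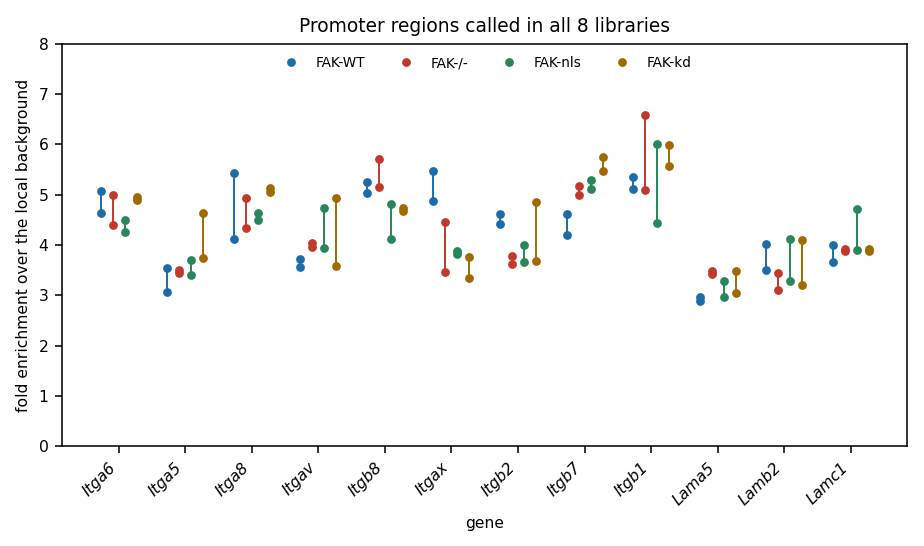
Fold enrichment over the local background (vertical axis, ratio) at the 12 promoter regions called in all 8 libraries, by gene (horizontal axis) and line (colour), each point being 1 library and each bar joining the 2 libraries of a line. Within a gene, the FAK-WT points lie below all other lines at *Itgb7*, at 4.21 and 4.61, and above them at *Itgax*, at 4.87 and 5.48. At *Lama5* they are also the lowest, at 2.96 and 2.88, level with a FAK-nls library at 2.96. Values are not normalised between libraries.

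Laminin alpha chains, which carry the integrin-binding domains, had 32 regions at 5 genes but the constant promoter of 1 gene, *Lama5*. Fold enrichment at chr2:180225144-180226047 was 2.96 and 2.88 in FAK-WT, 3.42 and 3.49 in FAK-/-, 3.28 and 2.96 in FAK-nls and 3.04 and 3.49 in FAK-kd cells. *Lama3*, the alpha chain of laminin-332 in skin, had 11 regions, 2 in all 8 libraries. A promoter call, at the first annotated start, was made in 1 FAK-/- (3.49) and 1 FAK-kd library (4.63). None of its other regions overlapped another annotated start, and which start these cells use was not tested. *Lama2* had 10 regions and no promoter call. An intronic region 553080 bp into *Lama2* was called in all 8 libraries, at 7.27 and 4.93 in FAK-WT, 7.36 and 7.14 in FAK-/-, 3.71 and 4.96 in FAK-nls and 4.39 and 6.04 in FAK-kd cells. *Lama1* had 1 region, in 1 FAK-nls library.

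*Lama4*, a chain known from the basement membranes of vessels and muscle, was the one gene at which every FAK-nls library had more regions than every FAK-WT library (2 and 2 against 1 and 1). This held for 1 of 36 genes, against 0.147% of the 16291 protein-coding genes with a region, and the opposite for 17, against 29.8%. On equal numbers of peaks the tally turned, with more regions in the FAK-nls libraries at 6 genes (*Itga2*, *Itga5*, *Itgb3*, *Lama4*, *Lamb1* and *Lamb2*, against 6.18%) and fewer at 3 (*Itga7*, *Itgam* and *Itgb2*, against 4.47%). Integrin and laminin genes have more regions each than the median gene, so the shares are not directly comparable. The *Lama4* region printed above (chr10:39023375-39024442) was called in neither FAK-WT library, at 4.17 and 4.03 in FAK-/-, at 4.29 and 4.41 in FAK-nls and at 4.03 in 1 FAK-kd library. On equal numbers of peaks the FAK-nls pair had it, as did 1 FAK-/- library.

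The beta and gamma chains had 24 regions at 5 genes. *Lamc1*, the gamma1 chain of most laminin trimers, had 7 regions. An intronic region 31820 bp into *Lamc1* had the highest mean fold enrichment of the 45 regions called in all 8 libraries, 7.21, with 5.82 and 7.57 in FAK-WT, 8.65 and 7.68 in FAK-/-, 6.75 and 6.68 in FAK-nls and 7.48 and 7.03 in FAK-kd cells. Its promoter (chr1:153332123-153334077) ranged from 3.67 to 4.72. *Lamb2* had a constant promoter with all peaks (chr9:108478885-108480191, from 3.11 to 4.12). On equal numbers of peaks it was called in the FAK-nls pair and 1 FAK-kd library only. The *Lamb1* promoter (chr12:31264727-31266372) was called in 5 libraries, in neither of the FAK-nls pair, from 2.87 to 3.79, and *Lamc3* had no promoter call.

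*Lamb3*, the beta3 chain of laminin-332, had 8 regions and none in more than 5 libraries. It had 6 and 5 regions in the FAK-WT libraries, 3 and 1 in FAK-/-, 1 and 0 in FAK-nls and 1 and 2 in FAK-kd cells, so that both FAK-WT libraries stood above all others. Its promoter region, at the first annotated start (chr1:193208219-193208529), belonged to the FAK-WT pair alone, with 4.41 and 3.82. The intronic region printed above (chr1:193297195-193298648) had 5.35 and 4.28 in FAK-WT, 3.51 and 3.91 in FAK-/- and 3.15 in 1 FAK-kd library. On equal numbers of peaks the latter was present in the FAK-WT pair and 1 FAK-/- library, and the promoter in none. *Lamb3* then had 2 and 1 regions in FAK-WT, 0 and 1 in FAK-/-, 1 and 0 in FAK-nls and 0 and 0 in FAK-kd cells. The FAK-WT pair then overlapped the FAK-/- and FAK-nls pairs and stayed above the FAK-kd pair.

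Whether a region was called in both libraries of 1 line and neither of the other was counted for each comparison with FAK-WT. Against FAK-/- cells, 10 of the 167 integrin and laminin regions called in either line were called in FAK-WT only (5.99%, against 5.41% of all regions), and 4 in FAK-/- only (2.40%, against 1.31%). Against FAK-nls cells, 30 of 151 were called in FAK-WT only (19.9%, against 18.4%) and 2 in FAK-nls only (1.32%, against 0.297%). Against FAK-kd cells, 9 of 169 were called in FAK-WT only (5.33%, against 4.76%) and 4 in FAK-kd only (2.37%, against 0.912%). The FAK-WT-only shares lay near the background, and the reverse counts were too few to read against it.

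On equal numbers of peaks FAK-WT-only regions no longer outnumbered the reverse against FAK-/- and FAK-nls cells. There were 1 FAK-WT-only and 3 FAK-/- only regions out of 89 (1.12% and 3.37%, against 4.12% and 3.95% of all regions). Against FAK-nls cells there were 5 and 9 out of 99 (5.05% and 9.09%, against 5.66% and 4.93%), and against FAK-kd cells 6 and 4 out of 86 (6.98% and 4.65%, against 3.70% and 3.15%). The 5 regions still FAK-WT-only against FAK-nls were those of *Itga7* (exonic), *Itgav*, *Itgam*, *Itgb2* and *Lamb3* (intronic). The 9 that were FAK-nls-only lay at *Itga1*, *Itga2*, *Itga5*, *Itgb5*, *Lama4* (2 regions), *Lamb1*, *Lamb2* and *Lamc1*, and 7 of them were in the FAK-WT pair when all peaks were used.

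**Figure D5:**
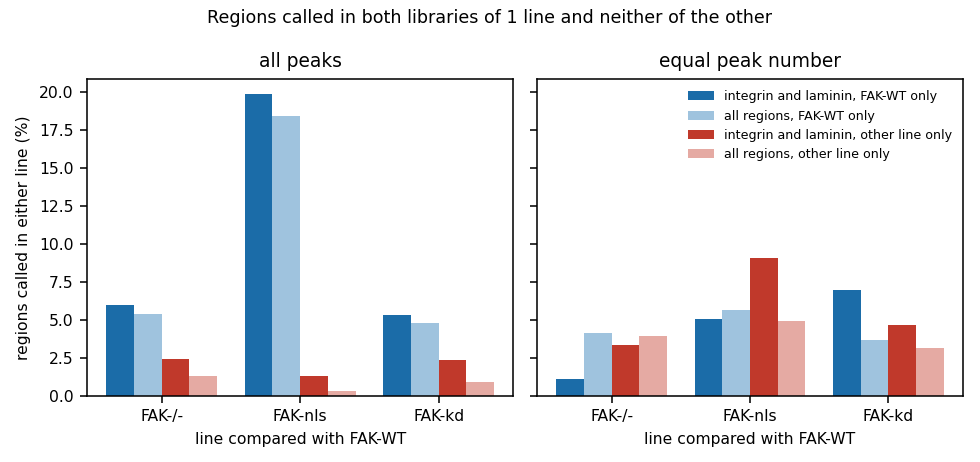
Share of the regions called in either line (vertical axis, %) that were called in both libraries of 1 line and neither of the other, for FAK-WT against each other line (horizontal axis), with all peaks on the left and equal peak numbers on the right. Dark bars are integrin and laminin regions and pale bars all regions, and the FAK-WT-only share against FAK-nls falls from 19.9% to 5.05% between the panels.

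A further count took in 7 integrin and laminin regions, which were called in all 6 FAK-WT, FAK-/- and FAK-kd libraries and in neither FAK-nls library (3.78%, against 4.12% of all regions). They lay at *Itga7*, *Itga8*, *Itgav*, *Itgb5*, *Itgb8*, *Itgae* and *Itgam*. The FAK-WT pair alone had 6 regions (3.24%, against 1.99%), at *Itga2*, *Itga9*, *Itga11*, *Lama2*, *Lama5* and *Lamb3*. By rank, the strongest regions that were FAK-WT-only against another line, apart from those given above, were so against FAK-nls alone. They were intronic regions of *Itgb2* (chr10:77544949-77545330, at 5.48 and 4.73 in FAK-WT), *Itgam* (chr7:128089007-128089967, at 5.63 and 4.45) and *Itgb5* (chr16:33863088-33863548, at 4.45 and 4.95). The others were a *Lamb3* intron (chr1:193215853-193216396, at 5.85 and 3.795) and a region upstream of *Lama5* (chr2:180227702-180228854, at 3.24 and 3.06). All of them were called in at least 1 library of FAK-/- and of FAK-kd cells and in no FAK-nls library.

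In the reverse direction, 7 of the 185 regions (3.78%, against 1.89% of all regions) were called in both libraries of at least 1 other line and in neither FAK-WT library. The difference in share was not tested. Besides the *Lama4* intron and the *Itga2* promoter, they were introns of *Itgb3* (chr11:104663204-104663590, at 3.93 and 5.96 in FAK-kd), *Lama4* (chr10:38984580-38985100, at 3.71 and 4.43 in FAK-kd), *Itga8* (chr2:12206452-12207098, at 3.42 and 4.31 in FAK-kd), *Lama2* (chr10:27378295-27378661, at 5.06 and 3.43 in FAK-/-) and *Itga11* (chr9:62684274-62684894, at 3.0 and 3.08 in FAK-/- and at 3.26 and 3.64 in FAK-kd). This *Itgb3* region was also called in 1 FAK-/- library (4.12) and 1 FAK-nls library (3.79), and this *Lama2* region in 1 FAK-kd library (4.58). The *Itga8* region and the second *Lama4* region were called in the FAK-kd pair alone (1.08% of the 185, against 0.317% of all regions).

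The size of the signal was compared at the 17917 regions called in all 8 libraries, 45 of them at integrin and laminin genes, with limma on quantile-normalised log2 fold enrichment and Benjamini-Hochberg adjustment over all regions. No integrin or laminin region passed an adjusted p of 0.05 against FAK-/- (0.00558% of all regions passed), FAK-nls (0% passed) or FAK-kd cells (0.0112% passed), or in the test over the 4 lines (0.0112% passed). At an unadjusted p under 0.05 there were 4 regions against FAK-/- (1 higher and 3 lower in FAK-WT, with 6.33% of all regions), 5 against FAK-nls (2 and 3, with 15.4%), 5 against FAK-kd (2 and 3, with 5.44%) and 3 over the 4 lines (with 13.4%). The median log2 difference over the 45 regions was -0.077, -0.072 and -0.037 against FAK-/-, FAK-nls and FAK-kd cells, beside -0.005, -0.011 and -0.0076 over all 17917 regions. Those comparisons share the FAK-WT libraries.

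The differences nearest to the threshold did not pass it. At the *Itgb7* promoter, FAK-WT cells were lower than FAK-nls cells by a log2 difference of -0.41 (SE 0.15, limma adjusted p = 0.205). The *Itgav* intronic region 20222 bp from the start was higher by 0.39 than in FAK-nls cells (SE 0.14, limma adjusted p = 0.213). Upstream of *Itga2*, FAK-WT cells were higher than FAK-/- cells by 0.39 (SE 0.15, limma adjusted p = 0.676). The *Itgax* promoter was higher than in FAK-kd cells by 0.48 (SE 0.16, limma adjusted p = 0.768). Over the 4 lines the *Lama2* region 553080 bp into the gene had the smallest adjusted p, 0.201. In exact two-sided permutation tests of the FAK-WT pair against the other 6 libraries, 2 of the 45 regions, the *Itgb7* promoter and the *Itga2* upstream region, reached p = 0.0357, the smallest that the 28 choices of 2 libraries allow, as did 3.65% of all 17917 regions. Across the 45 regions the log2 differences ran from -0.36 to 0.39 against FAK-/-, from -0.41 to 0.39 against FAK-nls and from -0.42 to 0.48 against FAK-kd cells, with a median SE of 0.15.

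Other genes of the same adhesion system, 23 basement membrane components, hemidesmosome proteins and integrin ligands, had 122 regions, 40 of them in all 8 libraries, where 25.8% of all regions were. The promoter was called in all 8 libraries at 11 of the 23, against 38.7% of protein-coding genes, among them *Fn1* (fibronectin), *Hspg2* (perlecan), *Agrn* (agrin), *Dag1* (dystroglycan), *Cd151* (a tetraspanin partner of laminin-binding integrins) and *Thbs1* (thrombospondin-1). It was called in no library at 6, among them *Nid1* (nidogen-1) and *Col17a1* (a collagen of hemidesmosomes). The matching share over all protein-coding genes is not given here. None of the 40 regions passed limma's test in any comparison, with 3 at an unadjusted p under 0.05 in each. FAK-WT-only regions numbered 3 of 110 against FAK-/-, 12 of 105 against FAK-nls and 0 of 112 against FAK-kd cells, where all regions had 5.41%, 18.4% and 4.76%. The reverse numbered 0, 0 and 1, where all regions had 1.31%, 0.297% and 0.912%.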

How the data were processed

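ATAC-seq peak lists of 8 libraries, 2 for each of 4 lines by their labels, were used. The authors aligned reads to mm10 with the bcbio pipeline and called broad peaks in each library with MACS2 (version 2.1.1, from the submitters' processing notes), without pooling replicates. The deposited lists give each peak's length, its pileup (coverage signal in reads), its −log10 p and −log10 q, and its fold enrichment, the ratio of pileup to local background. The authors state a q of 0.05, but in the deposited lists up to 3.83% of a library's peaks exceed it. Read counts per region were not used here, so the count-based test of the study could not be repeated. The study tabulates reads per library, which were not used here, and the lists themselves carry no depth. A region not called may still be accessible below the calling threshold.

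Peaks on the autosomes, X and Y were joined into regions where they shared 1 bp or more. A region's fold enrichment in a library is the mean over its peaks weighted by their lengths. Annotation was GENCODE vM21 and sequence was RefSeq GRCm38.p6, the build of the peaks, and no peak ran past a chromosome end. A gene's start is the first start of its coding transcripts, regions were placed by overlap, and distances run to their centres.

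Quantile-normalised log2 fold enrichment was tested with limma 3.58.1 (R 4.3.3), all 4 lines sharing 1 spread, and was tested on simulated data. Other computations used Python 3.11.15. The study calls the replicates biological, but the labels do not say whether they were separate cultures, so the p-values measure the spread between these libraries. The genes, lists, motifs and tests were chosen with earlier results of these data known. Promoter regions, up to 10 FAK-WT-only and 10 reverse regions by the poorer rank of −log10 p over the pair, and the genes with most constant regions were to be named. Other regions were named after their values were seen. The alternatives were other normalisations, pileup, the highest peak, a pseudocount of 1, at least 6 libraries, a −log10 q of 3, equal peak numbers, 50% coverage, a 5000 bp window, a promoter of 1000 bp before to 100 bp after the start, a replicate block and leaving out each library. Some items are not reported here.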

Additional observations from a re-analysis of the deposited data

How the results depend on the processing

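None of the integrin and laminin regions passed limma's test in any of the 3 comparisons with FAK-WT or over the 4 lines under the alternatives run, with 19 to 69 of the regions tested. The smallest adjusted p ran from 0.359 to 1.0 against FAK-/-, from 0.0714 to 0.435 against FAK-nls, from 0.239 to 1.0 against FAK-kd cells and from 0.0604 to 0.466 over the 4 lines. The lowest values against FAK-nls and over the 4 lines came with pileup, at *Itgav*. Over all regions, pileup passed 35, 215, 18 and 485 in place of 1, 0, 2 and 2, and the other alternatives passed from 0 to 5. Libraries with the same replicate number did not deviate together (correlations from -0.204 to 0.0556), and with a replicate block the integrin and laminin counts were again 0. The crossed pairing of FAK-WT and FAK-kd libraries, chosen after seeing the data, also gave 0. Without normalisation the median of all regions shifted by 0.0965, 0.149 and 0.0142 (log2) toward FAK-WT against FAK-/-, FAK-nls and FAK-kd cells.

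The calls depended more on the processing. The regions called in all 8 libraries numbered 45, but 19 with a −log10 q of at least 3, 27 on equal peak numbers and 11 where 50% of the region had to be covered, and from 45 to 53 when 1 library was left out. Promoters in all 8 libraries fell from 12 genes to 9 on equal peak numbers, 6 with the stricter q and 4 with the coverage rule. They ranged from 12 to 13 without 1 library. FAK-WT-only regions became 1 against FAK-/- and 5 against FAK-nls on equal peak numbers. FAK-nls-only regions became 9 on equal numbers and 0 with the stricter q or the coverage rule. FAK-/- only regions became 1 under each of the latter, and FAK-kd-only regions 2 with the stricter q. Leaving out 1 library gave from 12 to 34 FAK-WT-only regions against FAK-/-, from 38 to 59 against FAK-nls and from 11 to 27 against FAK-kd cells, and from 4 to 24, from 2 to 6 and from 4 to 25 in the reverse direction. The highest of these came without FAK-WT replicate 2 (34, 59 and 27) and, in reverse, without FAK-/- replicate 2 (24), FAK-nls replicate 2 (6) and FAK-kd replicate 1 (25). A line left with 1 library is judged on that library alone, and matching shares over all regions are not given here. These counts therefore do not show whether the moves were particular to integrin and laminin regions. The cause was not tested. A region that was not called can lie below the calling threshold, and whether read depth set the length of a list was not tested.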
